A study of Homo sapiens with 9 samples.

Results

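Metallothionein transcripts, the zinc sensor MTF1 and the zinc exporter SLC30A1 were measured by RNA sequencing in 9 libraries labelled MDA-MB-231, a long-established line of human triple-negative breast cancer cells. The members were taken by gene symbol: MT1E, MT1F, MT1G, MT1X, MT2A, MTF1 and SLC30A1. Of these 7 genes, 6 had a row among the 17911 genes of the count table, and MT1G had none. The labels describe 3 capsule samples and 6 liquid overlay spheroid samples, of which 3 are called small and 3 large. Every sample, capsules included, carries the same text: wild-type cells grown in RPMI with 10% serum, trastuzumab (an antibody against ERBB2) followed by a liquid overlay with 5% Matrigel (a basement membrane extract), and RNA taken after 96 hours. The series title names small spheroids and capsules, so the comparison examined is that of capsules with spheroids. The 3 capsule columns matched 1 sample each. The 6 spheroid columns fell into a set of 3 named L.O. and a set of 3 named Sph.WT, and neither name gives a size. They were therefore used as spheroids without a size, and the sets are called by their names.

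Total counts were 13212665 to 13735221 in the capsule libraries, 15525725 to 15988167 in the L.O. libraries and 16605098 to 33263076 in the Sph.WT libraries. The Sph.WT libraries stood apart. Pearson's r of log2(CPM + 0.5) over 16110 genes was 0.975 to 0.984 between capsule and L.O. libraries, and 0.683 to 0.712 between either of them and Sph.WT libraries. Genes typical of MDA-MB-231 summed to 9717 to 10816 CPM (counts per 1000000 counts) in the Sph.WT libraries, where all 20 reached 1 CPM in every library. They summed to 1225 to 1285 CPM in the capsule libraries (15 of 20 at 1 CPM) and 1528 to 1600 CPM in the L.O. libraries (17 of 20). Genes typical of HEK293, an established embryonic kidney line with neuronal features, went the other way. All 10 reached 1 CPM in every capsule and L.O. library, with sums of 2814 to 3080 CPM and 2707 to 3104 CPM. In Sph.WT libraries their sum was 53.4 to 62.5 CPM, 2 of 10 reached 1 CPM, and NEFL, PAX2 and HOXA9 were at 0. CDKN2A, a gene known to be deleted in MDA-MB-231, had 524 CPM ± 43.8 (SD, n = 3) in capsule, 556 ± 122 in L.O. and 0.716 ± 0.121 in Sph.WT libraries. By these lists and CDKN2A, the profiles of the capsule and L.O. libraries go against their cell line label. The lists were chosen with earlier results of these data known, so their sums are not independent support. Of the 20 genes typical of MDA-MB-231, 19 were called lower in capsule than in Sph.WT libraries. The remaining gene, GSTP1, was called higher (log2 0.34). Of all genes tested in this comparison, 42.9% were called lower and 43.2% higher. Mitochondrial mRNAs took 2.66% to 3.36% of counts in capsule and L.O. libraries and 5.35% to 5.41% in Sph.WT libraries, and the column headers of the Sph.WT set name the alignment files in another form. Differences of the members from the Sph.WT set cannot be told apart from these differences between libraries. The immune list (5 of 8 genes with a row) summed to 9.41 to 12.3 CPM in capsule, 29.3 to 32.1 in L.O. and 137 to 154 in Sph.WT libraries, the fibroblast list (7 of 8) to 43.7 to 48.4, 92.5 to 104 and 34.6 to 42.4, and the endothelial list (4 of 8) to 2.13 to 2.65, 3.14 to 4.19 and 6.08 to 10.4. The part of these lists in the results was not tested.

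Metallothioneins are small, cysteine-rich proteins that bind zinc, copper and cadmium and buffer free zinc in the cell. MTF1 is a zinc finger transcription factor that senses zinc, moves to the nucleus and binds metal response elements in the promoters of metallothionein genes and of SLC30A1, also called ZnT1. SLC30A1 sits mainly in the plasma membrane and exports zinc from the cytosol. Metallothioneins also respond to glucocorticoids, oxidants and low oxygen, and the set of isoforms a cell line expresses varies between lines.

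The human metallothionein genes lie in 1 cluster on chromosome 16, for which the RefSeq annotation of GRCh38.p14 gives 16 genes and pseudogenes over 119.124 kb, 11 of them protein coding. Only 4 of the 16 had a row: MT2A (chr16:56608584-56609497), MT1E (chr16:56625781-56627112), MT1F (chr16:56657959-56659303) and MT1X (chr16:56682470-56684196). None of the 12 other metallothionein genes and pseudogenes that were looked for (MT1A, MT1B, MT1H, MT1M, MT3, MT4, MT1DP, MT1JP, MT1L, MT1IP, MT1CP and MT2P1) had a row, so nothing is said of their levels. The smallest sum over the 9 libraries of any row was 20 counts. MTF1 (chr1:37809574-37859592) and SLC30A1 (chr1:211571568-211579161) lie apart on chromosome 1. Neighbouring metallothioneins are alike in sequence, and reads that fit several of them could be split or lost in counting. In GENCODE release 29 transcripts, the share of 75-base windows found in no other gene was 98.6% for MT1E, 100% for MT1F and MT2A, 63.2% for MT1X, 99.9% for MTF1 and 100% for SLC30A1. The exons of MT1X overlap those of AC026461.1 on the same strand, so the counts of MT1X are less certain than those of the other members.

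The stretches of 250 bases before the annotated start of MT2A, MT1X and SLC30A1 are shown because they differ in how many metal response element cores they hold, and because MT2A and SLC30A1 were called between the spheroid sets, as given further on, and MT1X was not. They come from RefSeq promoters of GRCh38.p14 and cover chr16:56608334-56608583 (plus strand), chr16:56682220-56682469 (plus strand) and chr1:211579162-211579411 (minus strand). Capitals mark every match, on either strand, to the core TGCACNC or its variant TGCGCNC.
MT2A: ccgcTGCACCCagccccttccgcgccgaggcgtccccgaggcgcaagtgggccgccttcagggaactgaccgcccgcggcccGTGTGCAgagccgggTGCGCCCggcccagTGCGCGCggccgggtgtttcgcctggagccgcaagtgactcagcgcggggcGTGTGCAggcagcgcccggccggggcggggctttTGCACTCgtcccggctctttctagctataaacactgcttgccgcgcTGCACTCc
MT1X: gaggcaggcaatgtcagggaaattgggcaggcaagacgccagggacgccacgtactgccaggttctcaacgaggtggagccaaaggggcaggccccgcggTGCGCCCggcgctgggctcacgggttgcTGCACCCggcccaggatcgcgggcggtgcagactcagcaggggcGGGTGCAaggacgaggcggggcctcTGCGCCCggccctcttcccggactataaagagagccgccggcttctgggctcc
SLC30A1: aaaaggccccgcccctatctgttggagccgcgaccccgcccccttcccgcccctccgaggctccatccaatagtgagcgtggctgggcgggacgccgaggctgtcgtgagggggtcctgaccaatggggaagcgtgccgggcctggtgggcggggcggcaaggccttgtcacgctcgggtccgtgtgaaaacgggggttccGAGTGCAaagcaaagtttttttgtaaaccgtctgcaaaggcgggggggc
The MT2A stretch held 7 matches, that of MT1X 4 and that of SLC30A1 1. The matching stretch of MTF1 (chr1:37859593-37859842, minus strand) held 0, and MT1E, MT1F and MT1G were not in the promoter table. Among 35116 promoters in the RefSeq table, 24.8% had at least 1 match, 0.370% at least 4 and 0.0313% at least 7. The bases G and C made 73.2% of the MT2A stretch, 70.0% of those of MT1X and MTF1 and 66.4% of that of SLC30A1. The promoters were not matched for this, so these shares do not tell how rare such counts are among stretches of like makeup. A match describes letters and is not evidence of binding. The map of matches by distance shows that those of MT2A ran from 246 to 2 bases before the start and those of MT1X from 150 to 47.

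**Figure D1:**
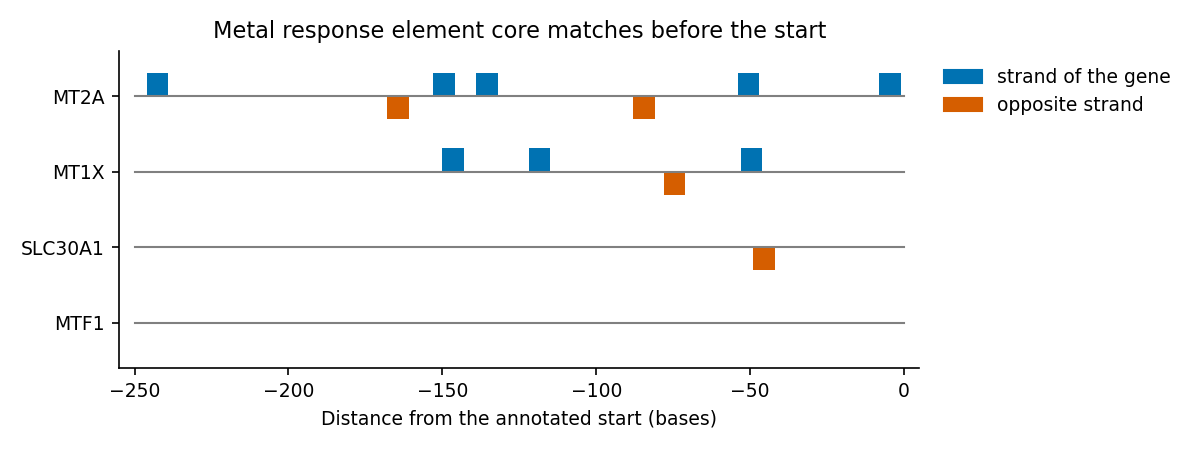
Positions of matches to the metal response element core in the 250 bases before the annotated start (x axis, bases from the start) of MT2A, MT1X, SLC30A1 and MTF1. Blue marks lie on the strand of the gene and orange marks on the opposite strand; MT2A has 7, MT1X 4, SLC30A1 1 and MTF1 none.

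MT2A, the most abundant metallothionein in most human cells, had 21.7, 19.5 and 16.8 CPM in the capsule libraries 1, 2 and 3. It had 12.5, 12.01 and 13.7 CPM in the L.O. libraries and 66.8, 65.3 and 65.3 CPM in the Sph.WT libraries. The 3 sets did not overlap: Sph.WT libraries were highest, and every capsule library was above every L.O. library. How many of all genes separate the sets in this way was not counted. For MT2A and the genes below, sets without overlap are therefore a description only. Because these are bulk samples, fewer cells that express a gene and less RNA per cell cannot be told apart.

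MT1E, an isoform found in some cell types and silent in others, had 0 counts in all 3 capsule and all 3 L.O. libraries. In the Sph.WT libraries it had 464, 629 and 373 counts, or 23.3, 18.9 and 22.5 CPM. A count of 0 allows up to 3 counts in a library, which equals at most 0.227 CPM here, so the Sph.WT mean of 21.6 CPM was at least 95.02-fold higher than in the capsule libraries. Against the highest such limit of the L.O. libraries it was at least 111.6-fold higher. These limits hold for counting error alone, because PCR copies of a molecule were not marked.

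MT1X, an isoform expressed in many tissues, had 16.4, 16.7 and 16.3 CPM in the capsule libraries. The L.O. libraries had 9.21, 11.3 and 11.2 CPM and the Sph.WT libraries 8.81, 7.09 and 11.1 CPM. Every capsule library was above every spheroid library, and the spheroid sets overlapped.

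MT1F, another isoform of the same cluster, was the scarcest member with counts in all 9 libraries. It had 6.66, 6.48 and 6.33 CPM in the capsule libraries, 5.44, 3.63 and 5.15 in the L.O. libraries and 2.42, 1.95 and 3.01 in the Sph.WT libraries. The sets did not overlap. The counts behind these values ranged from 48 to 89 per library.

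MTF1 had 26.3, 27.0 and 27.4 CPM in the capsule libraries, 34.2, 31.4 and 27.9 CPM in the L.O. libraries and 31.4, 35.2 and 29.3 CPM in the Sph.WT libraries. The capsule libraries were lowest, with capsule library 3 just under L.O. library 3, and the spheroid sets overlapped. SLC30A1 had 18.5, 15.1 and 14.3 CPM in the capsule libraries, 19.0, 19.1 and 20.5 CPM in the L.O. libraries and 53.0, 61.7 and 62.0 CPM in the Sph.WT libraries. Its Sph.WT values lay far above the rest, and the capsule and L.O. values lay next to each other without overlap.

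**Figure D2:**
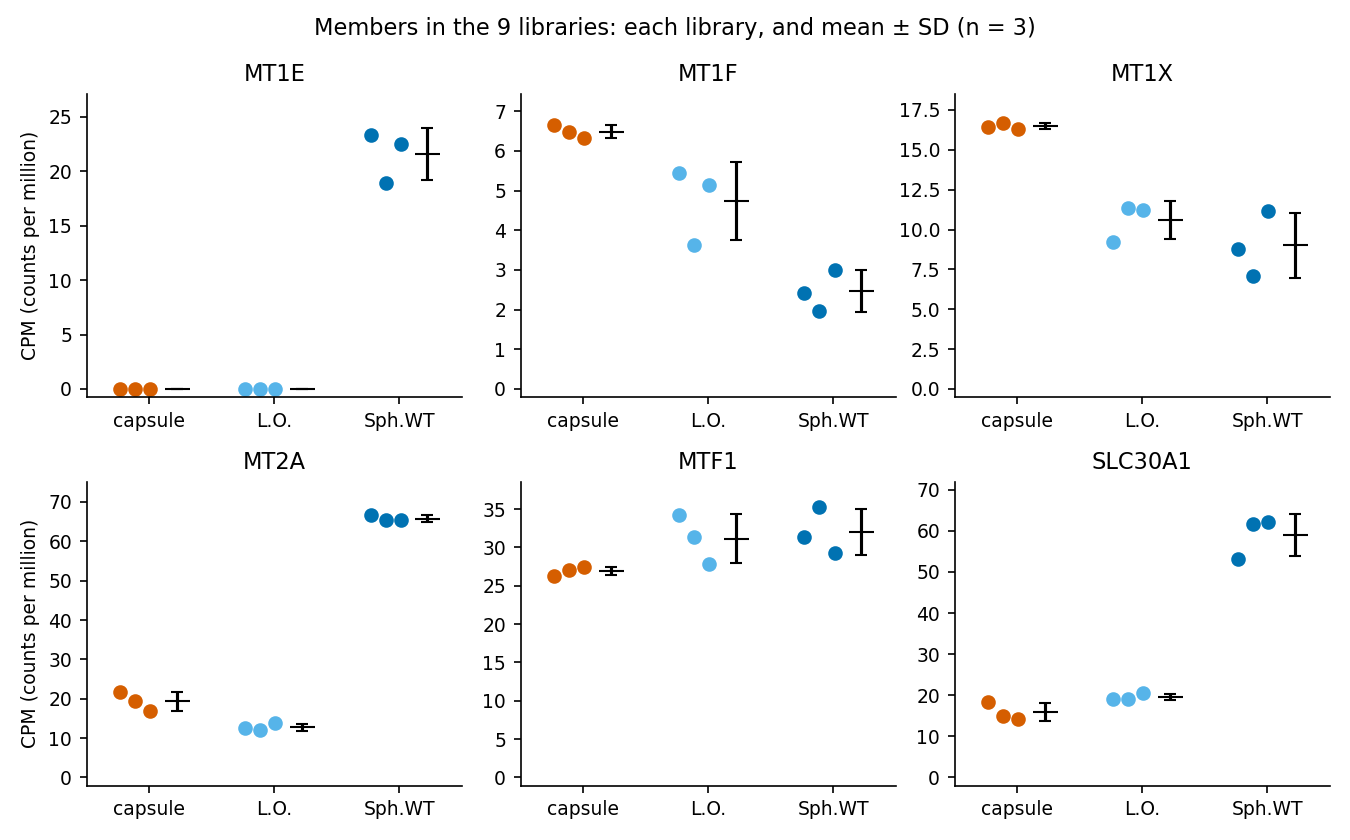
CPM (y axis, linear, library totals as the denominator) of the 6 members in the capsule, L.O. and Sph.WT libraries. Coloured points are single libraries and black marks the mean ± SD (n = 3); MT2A and SLC30A1 are highest in Sph.WT, MT1E is at 0 outside Sph.WT, and MT1F and MT1X are highest in capsule libraries.

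Levels of different genes were compared per kilobase of joined exons. In capsule libraries the order was MT2A (14.9 CPM per kb ± 1.88, SD, n = 3), MT1X (9.29 ± 0.1002), MT1F (3.43 ± 0.0887), MTF1 (3.36 ± 0.0689) and SLC30A1 (2.91 ± 0.407), with MT1E at 0. The neighbours MT1F and MTF1, and MTF1 and SLC30A1, overlapped. In L.O. libraries MT2A (9.82 CPM per kb ± 0.674) and MT1X (5.97 ± 0.668) led again, followed by MTF1 (3.88 ± 0.392), SLC30A1 (3.57 ± 0.149) and MT1F (2.51 ± 0.515). MTF1 and SLC30A1 overlapped there. In Sph.WT libraries MT2A (50.7 CPM per kb ± 0.647) was followed by MT1E (20.5 ± 2.23) and SLC30A1 (10.8 ± 0.933). MT1X (5.08 ± 1.15), MTF1 (3.99 ± 0.373) and MT1F (1.30 ± 0.281) came last, and MT1X and MTF1 overlapped. The joined exon length can exceed that of the expressed transcript, so the order is approximate.

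The makeup of the metallothionein signal can be read within a library, free of any scaling between libraries. The ratio of MT2A to MT1X counts was 1.32, 1.17 and 1.03 in the capsule libraries and 1.36, 1.06 and 1.22 in the L.O. libraries. It was 7.58, 9.20 and 5.86 in the Sph.WT libraries. Capsule and L.O. libraries overlapped in this ratio and Sph.WT libraries did not overlap with them. Per kilobase, MT2A made 50.8% to 56.7% of the summed signal of the 4 isoforms in capsule and L.O. libraries and 63.2% to 68.6% in Sph.WT libraries. MT1X made 29.3% to 36.4% and 5.46% to 7.90%. MT1E, at 0 elsewhere, made 24.5% to 27.8% in Sph.WT libraries. The summed metallothionein level was 39.5 to 44.8 CPM in capsule, 27.0 to 30.1 CPM in L.O. and 93.3 to 102 CPM in Sph.WT libraries. The ratio of SLC30A1 to MTF1 counts, exporter to sensor, was 0.520 to 0.701 in capsule, 0.556 to 0.734 in L.O. and 1.69 to 2.11 in Sph.WT libraries.

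**Figure D3:**
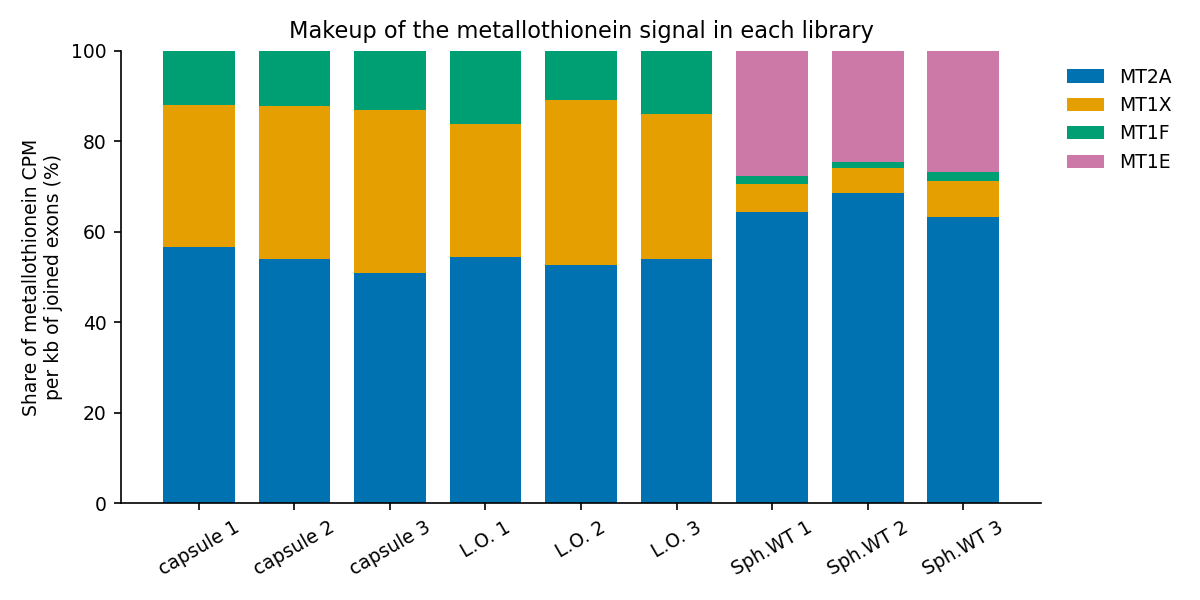
Share of each isoform in the summed metallothionein CPM per kb of joined exons (y axis, %, stacked from 0 to 100) in each of the 9 libraries (x axis). MT2A and MT1X make most of the signal in capsule and L.O. libraries, and MT2A and MT1E in Sph.WT libraries.

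Capsule libraries were first tested against all 6 spheroid libraries with edgeR's quasi-likelihood test, with p-values adjusted by Benjamini-Hochberg over all genes and a threshold of 0.05. MT1E entered the tests only through the Sph.WT libraries, where it has counts, so its tests are not used and the members are counted without it. None of the 5 other members was called, and 639 of 16985 genes were (3.76%). The nearest member was MT1X, with a log2 fold change of 0.67 (SE 0.18, adjusted p = 0.0850), ahead of MT1F at 0.83 (SE 0.26, adjusted p = 0.115). MTF1 had -0.33 (adjusted p = 0.275), SLC30A1 -1.51 (adjusted p = 0.166) and MT2A -1.27 (adjusted p = 0.342). At an unadjusted p under 0.05 there were 3 of the 5 members, MT1F, MT1X and SLC30A1, and 4929 of the 16985 genes tested. DESeq2 called MT1X and MT1F as higher in capsules. It called 23.7% of all genes in either direction, with fewer of them higher than lower in capsules, as counted in the last section. The biological coefficient of variation was 66.0% in the fit that pools the spheroids, against 7.32% to 7.73% in the fits where each set had its own mean. A fit with a mean for each set, capsules against the average of both spheroid means, called all 5 of these members, where it called 74.4% of genes. The 639 genes were 390 higher and 249 lower in capsules; scaled by library totals instead of TMM (edgeR's trimmed mean scaling) they were 99 and 260 (2.11% of genes).

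Capsule libraries were then compared with the L.O. libraries alone. The 3 metallothioneins with counts in both sets were higher in the capsule libraries. MT1X had a log2 fold change of 0.78 (SE 0.12, adjusted p = 1.84e-05), MT2A 0.75 (SE 0.12, adjusted p = 3.76e-05) and MT1F 0.60 (SE 0.17, adjusted p = 0.00670) in edgeR's test. These are 1.72-fold, 1.68-fold and 1.52-fold differences, each seen as higher in 3 of 3 capsule libraries than in any L.O. library. The share of all genes that separate like this was not counted. MTF1 (log2 -0.06, 95% CI -0.26 to 0.13) and SLC30A1 (log2 -0.15, 95% CI -0.39 to 0.09) were not called. MT1E was at 0 in both sets. Of 5 members tested, 3 were thus called, all higher, where 50.1% of 15919 genes were called and 24.7% were called higher. The call of MT1F was lost without L.O. library 2 (log2 0.43, adjusted p = 0.0530), and the sign of MTF1 turned without L.O. library 1 (log2 0.011, adjusted p = 0.937). Scaling by library totals put the median log2 fold change of all genes at -0.16 in place of -0.01 and gave 2275 higher and 5852 lower genes in place of 3934 and 4036. Under it MT1X (log2 0.64), MT2A (0.60) and MT1F (0.45) kept their calls, and SLC30A1 was called lower in capsules (log2 -0.30, adjusted p = 0.0357), which made 4 of 5 members where 51.1% of genes were called.

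Against the Sph.WT libraries alone, all 5 members other than MT1E were called, as were 86.1% of 16157 genes. MT1F (log2 1.16, SE 0.18, adjusted p = 8.21e-06) and MT1X (log2 0.62, SE 0.14, adjusted p = 0.000368) were higher in capsule libraries, where 43.2% of genes were called higher. MT2A was 4.12-fold lower (log2 -2.04, SE 0.09, adjusted p = 1.19e-13) and SLC30A1 4.48-fold lower (log2 -2.16, SE 0.11, adjusted p = 3.13e-13). MTF1 was 1.45-fold lower (log2 -0.53, SE 0.10, adjusted p = 3.90e-05). Called lower were 42.9% of genes. Library totals put the median of all genes at 0.29 in place of 0.01 and left MTF1 at -0.25 (adjusted p = 0.0159). All 5 members kept sign and call, as 86.2% of genes were called.

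The L.O. and Sph.WT spheroid sets were also compared, with a mean for each of the 3 sets in the fit. Of the 5 members other than MT1E, 4 were called, against 85.5% of 16985 genes. MT2A was 7.11-fold lower in L.O. libraries (log2 -2.83, SE 0.10, adjusted p = 1.20e-17) and SLC30A1 4.16-fold lower (log2 -2.06, SE 0.10, adjusted p = 6.84e-15). MTF1 was lower by this scaling (log2 -0.51, SE 0.10, adjusted p = 5.44e-05). MT1F was higher in L.O. libraries (log2 0.52, SE 0.20, adjusted p = 0.0182), and MT1X was not called (log2 -0.20, 95% CI -0.50 to 0.09). Called lower were 43.1% of genes and called higher 42.4%. Library totals put the median of all genes at 0.45 in place of -0.01 and moved the split from 7202 higher and 7319 lower to 9349 and 5287. Under them MTF1 was at -0.04 (adjusted p = 0.665), which ended its call, and MT1X turned to 0.26 (adjusted p = 0.105), so that 3 of 5 members were called beside 86.2% of genes. MT1F lost its call without L.O. library 1 (log2 0.41, adjusted p = 0.0929), L.O. library 3 (0.46, adjusted p = 0.0553) or Sph.WT library 2 (0.36, adjusted p = 0.128), and MT1X gained one without Sph.WT library 2 (-0.36, adjusted p = 0.0229). The 3 comparisons of sets share libraries, so their values are not independent of each other.

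**Figure D4:**
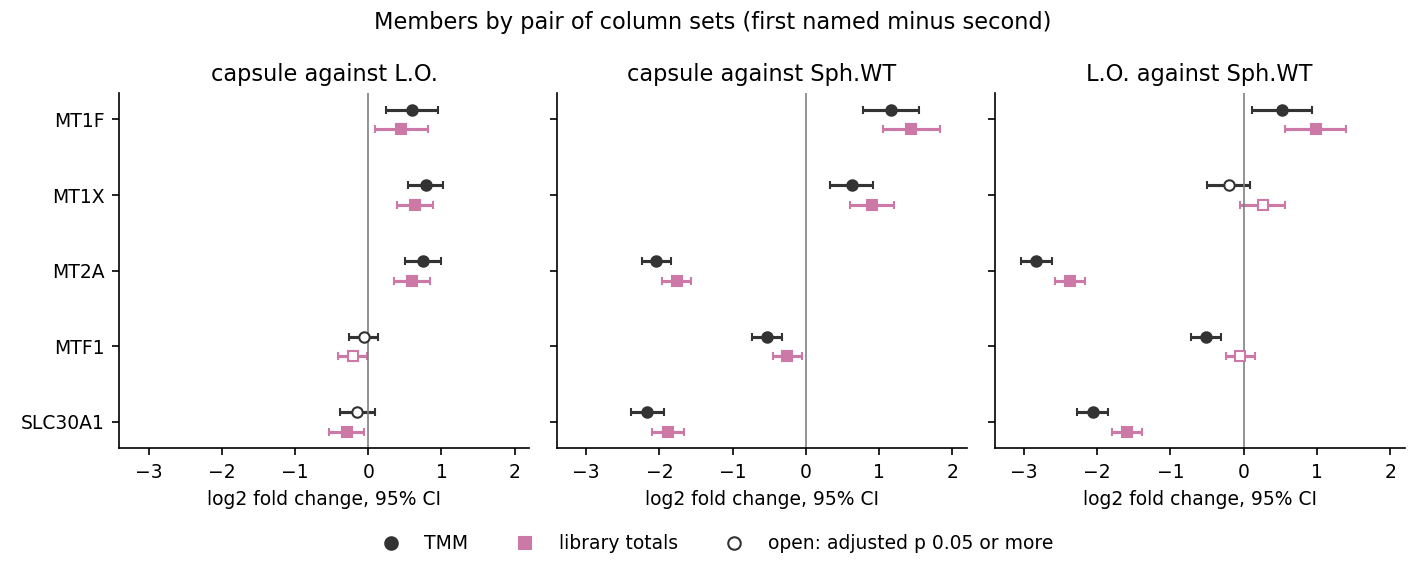
Log2 fold change with 95% CI (x axis) of MT1F, MT1X, MT2A, MTF1 and SLC30A1 in the 3 comparisons of sets, by TMM scaling (circles) and by library totals (squares); open symbols were not called. MT1X and MT1F lie above 0 in both capsule comparisons under both scalings, and MTF1 is called in L.O. against Sph.WT by TMM only.

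The wider zinc transporter families were read from lists that leave out SLC30A1. The single genes named in them were chosen after their values were seen. None of the 7 tested SLC30 genes (efflux and vesicle storage) and none of the 12 SLC39 genes (uptake) was called in capsules against all spheroids, where 3.76% of all genes were. In each family 1 gene had an unadjusted p under 0.05 and 1 was called by DESeq2, which called 23.7% of all genes. The number out of all tested genes at an unadjusted p under 0.05 is given above with the members. Between L.O. and Sph.WT libraries all tested SLC30 genes other than SLC30A10 were called. SLC30A3 was higher and 5 were lower in L.O., where 85.5% of all genes were called. With SLC30A10 counted, the median log2 fold change of the 7 was -0.61 against -0.01 for all genes. By library totals 5 of the 7 were called, 2 higher and 3 lower, beside 86.2% of all genes, and the medians were -0.15 and 0.45. SLC30A3, a vesicle transporter known from neurons, had 13.5 to 19.3 CPM in capsule, 23.9 to 28.7 in L.O. and 0.571 to 1.16 in Sph.WT libraries. SLC30A10, a manganese exporter of the same family, had 16 to 32 counts in capsule, 38 to 62 in L.O. and 0 in all Sph.WT libraries. It was thus tested only through the other sets. Its call as higher in L.O. than in Sph.WT is not used as a result, though it is among the genes behind the medians and the library-total counts above. SLC30A7, which loads zinc into the Golgi, was highest in Sph.WT libraries like SLC30A1, with 29.6 to 38.3 CPM in capsule, 22.9 to 29.7 in L.O. and 65.3 to 68.95 in Sph.WT libraries. It was also called higher in capsule than in L.O. libraries (log2 0.43, adjusted p = 0.00295), where SLC30A1 was not. Its log2 fold change of L.O. against Sph.WT was -1.77 (SE 0.10, adjusted p = 8.85e-14).

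Between L.O. and Sph.WT libraries 85.5% of all genes were called, 42.4% higher and 43.1% lower in L.O. libraries. Of the 12 tested SLC39 genes 9 were called, 1 higher and 8 lower, with a median log2 fold change of -0.77. By library totals 11 were called, 5 higher and 6 lower, beside 86.2% of all genes, with a median of -0.30. SLC39A10, a plasma membrane zinc importer, was lower in L.O. by -2.04 on the log2 scale (SE 0.09, adjusted p = 4.66e-16). Between capsule and L.O. libraries 4 of 7 SLC30 genes (3 higher, 1 lower) and 6 of 12 SLC39 genes (5 higher, 1 lower) were called, close to the 50.1% of all genes. By library totals these became 6 of 7 (3 higher, 3 lower) and 3 of 12 (1 higher, 2 lower), beside 51.1% of all genes. SLC39A14, a zinc and iron importer, was higher in capsules than in L.O. libraries (log2 0.62, SE 0.07, adjusted p = 5.93e-07). The Golgi and endoplasmic reticulum family member SLC39A13 was lower (log2 -0.37, SE 0.09, adjusted p = 0.00243).

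**Figure D5:**
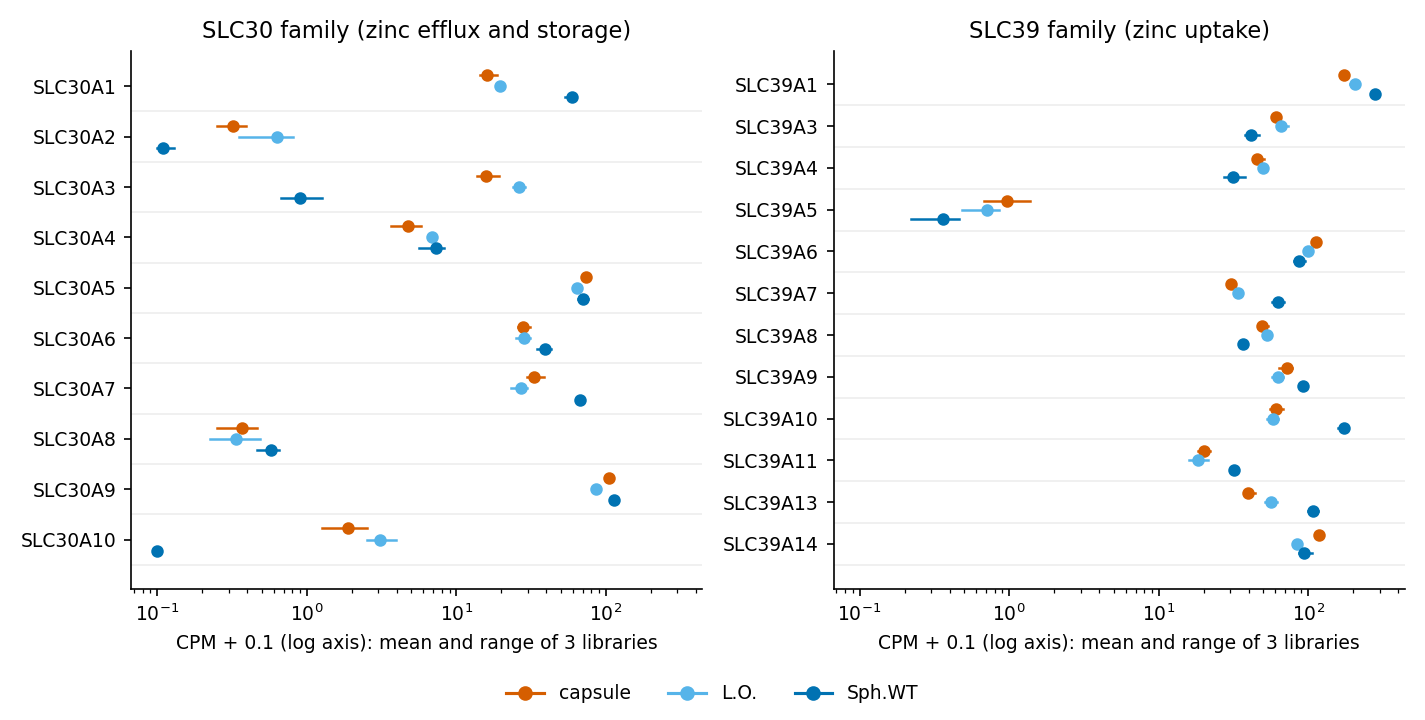
CPM + 0.1 (x axis, log scale) of the SLC30 genes, SLC30A1 included, and the SLC39 genes in capsule, L.O. and Sph.WT libraries; points are means and lines the range of 3 libraries. SLC30A1, SLC30A7 and SLC39A10 are highest in the Sph.WT libraries, where SLC30A10 lies at 0 CPM and SLC30A3 at 0.571 to 1.16 CPM.

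Other lists tied to the same genes were read as counts. Capsules against all spheroids gave 0 calls among 9 copper-handling genes, 10 metal and oxidant stress genes and 10 glucocorticoid targets, beside 3.76% of all genes. At an unadjusted p under 0.05 there were 5 of 9, 1 of 10 and 4 of 10. These are to be read beside the number out of all tested genes given above with the members. DESeq2 called 2, 2 and 4, beside 23.7% of all genes. By library totals 1 glucocorticoid target, the kinase gene SGK1, was called lower in capsules (log2 -1.52, SE 0.30, adjusted p = 0.0453), beside 2.11% of all genes called. Capsules against L.O. gave 5 of 9 (4 higher, 1 lower), 8 of 10 (4 higher, 4 lower) and 6 of 10 (1 higher, 5 lower), beside the 50.1% of all genes. By library totals these became 4 of 9 (2 higher, 2 lower), 6 of 10 (2 higher, 4 lower) and 6 of 10 (0 higher, 6 lower), beside 51.1% of all genes. SLC7A11, the cystine importer, had the largest difference of the stress genes, with a log2 fold change of 2.05 (SE 0.11, adjusted p = 7.23e-11), and HMOX1, heme oxygenase 1, was lower (log2 -0.89, SE 0.08, adjusted p = 1.01e-07). L.O. against Sph.WT gave 7 of 9 copper-handling genes and 9 of 10 stress genes, beside the 85.5% of all genes. All glucocorticoid targets other than ZBTB16 were called as well. ZBTB16 was at 0 in the Sph.WT libraries. It was tested only through the other sets, so its call is left out here. In capsules against all spheroids, where 3.76% of all genes were called, 1 of 9 tested neighbours of the metallothionein cluster was called. It was OGFOD1, a ribosomal protein hydroxylase, with 83.6 to 84.0 CPM in capsule, 53.0 to 59.7 in L.O. and 32.4 to 36.8 in Sph.WT libraries (log2 0.85, SE 0.12, adjusted p = 0.0153). The call ended by library totals (log2 0.89, adjusted p = 0.0791) and without capsule library 1, 2 or 3 (log2 0.84 to 0.86, adjusted p = 0.106 to 0.133). Like MT1X and MT1F, OGFOD1 was higher in every capsule library than in any spheroid library, and the share of all genes with this order was not counted.

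The genes whose log2(CPM + 0.5) ran most like MT2A over the 9 libraries, among 16109, were SMIM15, G0S2, CUL2, TMEM43 and TMEM14B, with Pearson's r of 0.993 to 0.996. Among the members r with MT2A was 0.97 for MT1E, 0.92 for SLC30A1, 0.29 for MTF1, -0.47 for MT1X and -0.77 for MT1F. Over the 6 spheroid libraries the nearest genes were RUNX1, SRPX, NPC2, GPRC5D-AS1 and MYL12A. The points share their library, and the Sph.WT libraries form a cluster apart from the others, so any gene with a like gap between these clusters ranks high.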

How the data were processed

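The submitters' processing notes name hg38, featureCounts and limma, without versions or roles. The values are the authors' deposited counts of reads per gene, not normalized. Aligner, annotation and strand are not given in the sources used here, so overlapping genes cannot be separated by strand. No column of per-sample values was left unused. The members and lists were chosen with earlier results of these data known. All 6 members and, from other lists, only the 2 largest rises and falls among calls in capsules against spheroids (here OGFOD1) were named by rule. From each marker list the rule gave the 3 most abundant genes per group.

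Counts were scaled to CPM by library totals. edgeR 4.0.16 in R 4.3.3 gave quasi-likelihood tests with TMM scaling and filterByExpr, adjusted over all genes (Benjamini-Hochberg, 0.05). The code was tested on simulated data. Alternatives were DESeq2 1.42.0, other scalings, no filter, each library left out and a replicate block. The settings for capsules against each set were chosen after seeing the data. Nothing says that replicates were separate cultures, so p-values measure a spread that may be technical. Sequences and coordinates came from RefSeq GRCh38.p14, matched by Entrez ID (17667 of 17911). Exon lengths came from GENCODE release 29. Reads of near-identical metallothionein genes may be split.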

Additional observations from a re-analysis of the deposited data

How the results depend on the processing

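The count of 639 genes for capsules against all spheroids became 359 by library totals, 4025 with DESeq2 (1216 higher, 2809 lower), 7970 against L.O. libraries alone, 13909 against Sph.WT libraries alone and 12643 against the mean of both sets. With 1 library left out it ranged from 0 to 604: it was 0 without capsule library 1, 2 or 3 (2448, 2620 and 2507 genes at an unadjusted p under 0.05), 287 and 409 without L.O. library 2 or 3, and 154, 240 and 207 without Sph.WT library 1, 2 or 3. With the replicate number as a block it was 0 (2856 genes at an unadjusted p under 0.05). Libraries with the same number correlated at -0.12 to 0.02 in their deviations, and 1 of 9 correlated best with its own number, so the numbers do not pair the libraries; the block changed no call of a member and ended that of OGFOD1 (log2 0.85, adjusted p = 0.158). The member count of 0 of 6 became 3 with DESeq2, 3 against L.O. alone, 6 against Sph.WT alone (MT1E, tested only through Sph.WT, is 1 of the members called with DESeq2 and against Sph.WT) and 5 against the mean of both sets, and stayed at 0 in the other settings, block included. Values that changed sign were MT2A in capsules (-1.27 against all spheroids, 0.75 against L.O. alone), MTF1 in capsules against L.O. (0.011 without L.O. library 1; -0.14 to 0.011 over the libraries left out) and MT1X in L.O. against Sph.WT (0.26 by library totals); the cause was not tested. The counts of all genes called in the 3 comparisons of sets stayed within 1.5 times under every setting run. MT1F has the fewest counts, 48 to 89 a library, of the members seen in all libraries, so its values are the least precise in counting. SLC30A7 and SLC39A10 in L.O. against Sph.WT kept sign and call in every setting run. So did SLC39A13, SLC39A14, SLC7A11 and HMOX1 in capsules against L.O. libraries. The call of SLC30A7 in capsules against L.O. libraries was not followed through these settings.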
